A study of Mus musculus with 4 samples.

Results

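A set of 31 genes of mitochondrial fatty acid oxidation and of the PPAR-alpha programme was followed across tubule segments and across libraries of mouse renal cortex. The members were taken from a list of gene symbols and not by a measured value. All 31 had UMIs, among 22078 genes with any UMI in the 4 count files. By role, 6 members act in uptake, activation and the carnitine shuttle, 5 are acyl-CoA dehydrogenases, and 7 are hydratases, hydroxyacyl-CoA dehydrogenases or thiolases. Another 3 are auxiliary enzymes for unsaturated chains, 3 belong to the electron transfer flavoprotein system, and 7 are PPAR-alpha and genes it controls. Their totals over the retained cells ran from 8 UMIs (Pdk4) to 2998 UMIs (Slc27a2), with a median of 315.

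Long-chain fatty acids are bound in the cytosol, activated to acyl-CoA, passed into mitochondria through the carnitine shuttle and shortened in repeated rounds by dehydrogenation, hydration, a further dehydrogenation and thiolytic cleavage. Electrons from the dehydrogenation steps pass through the electron transfer flavoprotein to the respiratory chain. PPAR-alpha, a nuclear receptor that binds DNA together with RXR, switches on many of these genes, and the proximal tubule is known for its reliance on fatty acids as fuel.

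Single cells were captured by Drop-seq, in which droplets give each mRNA a cell barcode and a unique molecular identifier (UMI) near its 3′ end, so that levels are not scaled by gene length. Akita mice, labelled C57BL/6-Ins2Akita/J, are a model of diabetes that arises from a mutation in Ins2, an insulin gene. They were 116 (replicate 1) and 119 days old (replicate 2), and the mice labelled as wild type were 45 and 51 days old, so age and genotype cannot be told apart. The labels' growth protocol gives 24 weeks of housing and 8 mice in each group, which is longer than any of these 4 ages, so how these mice relate to those groups is not known. Libraries of 2 mice per genotype were analysed here.  Ins2 had 0 UMIs in the retained cells, so these libraries carry no check of the genotype.

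The files held between 1016719 and 1303453 UMIs, and between 311 and 600 barcodes per library were retained as cells, 1916 in all, with library medians of 746.5 to 835 UMIs per cell. Clusters made without the members were named from marker genes. They gave 1460 proximal tubule-like cells, 281 loop of Henle-like cells, 110 intercalated cell-like cells and 65 connecting tubule-like cells. All 18 proximal tubule markers were detected, at 44084 to 56924 CPM in sum (CPM scales UMIs to the total of the cells they were summed over). The loop of Henle-like cluster also had the distal convoluted tubule genes Pvalb and Slc12a3 among its leading genes, and the summed podocyte and endothelial markers ran from 10.8 to 35.9 CPM. Erythroid markers summed to 61.0 and 528 CPM in the Akita libraries and to 379 and 109 CPM in the wild-type libraries, and macrophage or dendritic markers to 26.9 and 201 CPM against 105 and 129 CPM. Their part in the results was not tested.

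Akita replicate 2 and Wild-type replicate 1 had 884 cell barcodes in common, while every other pair of files shared 3 or 4. Of the cells retained, 73.0% in the former and 80.5% in the latter had such a barcode. Comparisons of segments therefore used Akita replicate 1, Wild-type replicate 1 and Wild-type replicate 2, so that no barcode common to the former 2 files entered from both. Merging barcodes with the same first 11 bases gave 1845 cells in place of 1916, so some cells may still enter under more than 1 barcode. Comparisons of genotype used all 4 libraries, as deposited and again after assigning every barcode of this kind to only 1 of its files. Barcodes in both files carried 88.4% and 91.5% of the retained UMIs of Akita replicate 2 and Wild-type replicate 1, so values by genotype as deposited may count the same cells under both genotypes. Whether these barcodes are the same cells was not tested, and the assignment rests on which file had relatively more of their UMIs. It left 308 of the 564 retained cells of Wild-type replicate 1 in that file, while the comparisons of segments used all 564. Segment values given for Wild-type replicate 1 may therefore hold cells of both mice and genotypes.

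The set split between tubule classes. In distal tubule-like cells (loop of Henle-like, connecting tubule-like and intercalated cell-like cells pooled), the fatty acid transporter Slc27a2 and the PPAR-alpha targets Vnn1 and Acot1 were at 8.98%, 11.8% and 15% of their proximal tubule-like level. The binding protein Fabp3 was 13.0 times higher there, and Hadha and Hadhb, the subunits of the mitochondrial trifunctional protein, were 2.84 and 3.61 times higher. Of the 31 members, 26 passed the filter on low counts, 12 of these were called lower in distal tubule-like cells, 5 were called higher and 9 were not called (edgeR, adjusted p under 0.05). Among all 4188 genes tested, 21.4% were called lower and 18.5% higher, 39.9% in either direction. The median log2 fold change of the tested members was −0.66, beside 0.00 over all genes tested. The filter removed Acadvl, Acads, Pdk4, Acot2 and Angptl4, so these counts describe the tested members only. DESeq2 called 10 members, 6 lower and 4 higher, and did not call Cpt2, Hadh, Acaa1b, Eci1, Ppara and Plin2 among the lower ones.

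**Figure D1:**
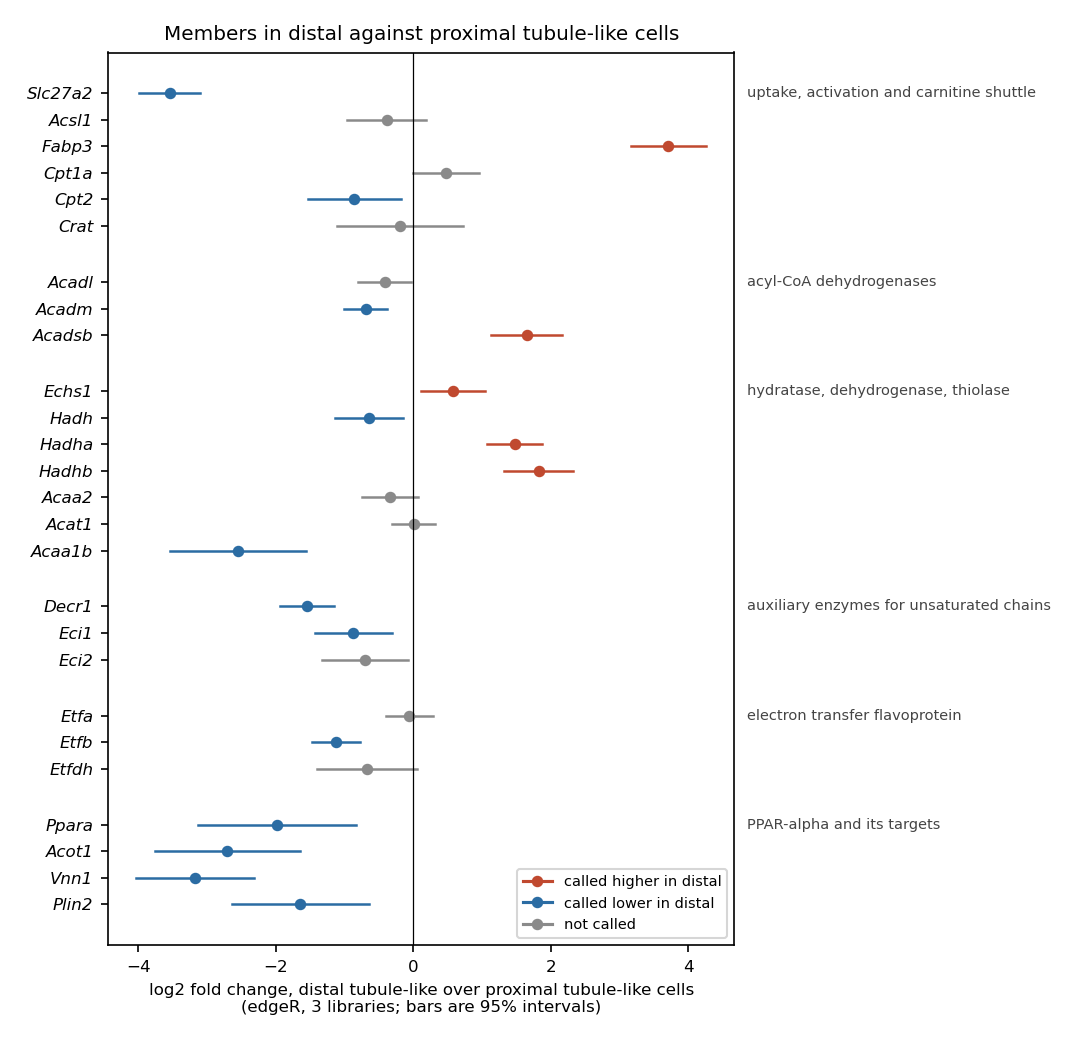
Log2 fold change of each of the 26 tested members between distal tubule-like and proximal tubule-like cells, with 95% intervals from edgeR over 3 libraries, in order of role. Points left of 0 are lower in distal tubule-like cells: 12 members in blue were called lower, 5 in red higher, and 9 in grey were not called, with Slc27a2 (−3.54) and Fabp3 (3.71) at the ends.

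Of the 6 genes of uptake, activation and the carnitine shuttle, Slc27a2 and Cpt2 were called lower in distal tubule-like cells, Fabp3 was called higher, and 3 were not called. Slc27a2 encodes a transporter that also activates very long chain fatty acids and lies on GRCm38 chr2:126552407-126588243. It was at 1258, 1134 and 1573 CPM in the proximal tubule-like cells of Akita replicate 1, Wild-type replicate 1 and Wild-type replicate 2, and at 162, 68.2 and 126 CPM in their distal tubule-like cells. The distal level was lower by far in every library, with no overlap (log2 fold change −3.54, SE 0.21, edgeR adjusted p 1.11e-09).

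Fabp3, the heart-type fatty acid binding protein that carries fatty acids in the cytosol (chr4:130308595-130315463), ran the opposite way. It was at 43.8, 20.0 and 34.3 CPM in proximal tubule-like cells and at 420, 502 and 352 CPM in distal tubule-like cells of the same libraries. Each distal value was above each proximal value (log2 fold change 3.71, SE 0.26, edgeR adjusted p 6.06e-09). Within the distal pool it was not even: over the 3 libraries together Fabp3 stood at 536 CPM in loop of Henle-like cells (95% counting interval 459 to 623), 187 CPM in connecting tubule-like cells (75.1 to 385) and 111 CPM in intercalated cell-like cells (50.7 to 210).

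The carnitine shuttle genes differed less. Cpt2, the inner-membrane carnitine palmitoyltransferase, was at 56.4% of its proximal level in distal tubule-like cells (log2 fold change −0.86, SE 0.32, edgeR adjusted p 0.0419). Cpt1a, the outer-membrane enzyme that controls entry into mitochondria, was at 124, 114 and 159 CPM in proximal and 113, 205 and 239 CPM in distal tubule-like cells, which overlapped and was not called (log2 fold change 0.47, edgeR adjusted p 0.113). Acsl1, which makes long-chain acyl-CoA, and Crat, which makes short acylcarnitines, were not called either, with log2 fold changes of −0.39 and −0.19.

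The acyl-CoA dehydrogenases, which open each round of oxidation, also split. Acadm, the medium-chain enzyme (chr3:153922357-153944632), was at 859, 967 and 772 CPM in proximal and at 574, 558 and 511 CPM in distal tubule-like cells. The groups did not overlap (log2 fold change −0.69, SE 0.15, edgeR adjusted p 0.00109). Acadl, the long-chain enzyme, was at 525, 588 and 665 CPM against 412, 614 and 345 CPM, which overlapped, and it was not called (log2 fold change −0.41, SE 0.18, edgeR adjusted p 0.0828).

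Acadsb, the short/branched-chain dehydrogenase that acts mainly in isoleucine breakdown (chr7:131410601-131448944), was higher in the distal classes. It was at 94.4, 55.3 and 72.3 CPM in proximal and 202, 260 and 226 CPM in distal tubule-like cells, with no overlap (log2 fold change 1.65, SE 0.24, edgeR adjusted p 3.58e-05). Acads, the short-chain enzyme, had 59 UMIs in proximal and 11 in distal tubule-like cells and was not tested. Acadvl, the very-long-chain enzyme, had only 17 UMIs in all retained cells of the 4 libraries. Of the last 500 exonic bases of Acadvl, where 3′ tags fall, 410 overlap Dvl2 on the opposite strand, and the strand setting used in counting is not given in the sources used here, so its level here is uncertain.

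**Figure D2:**
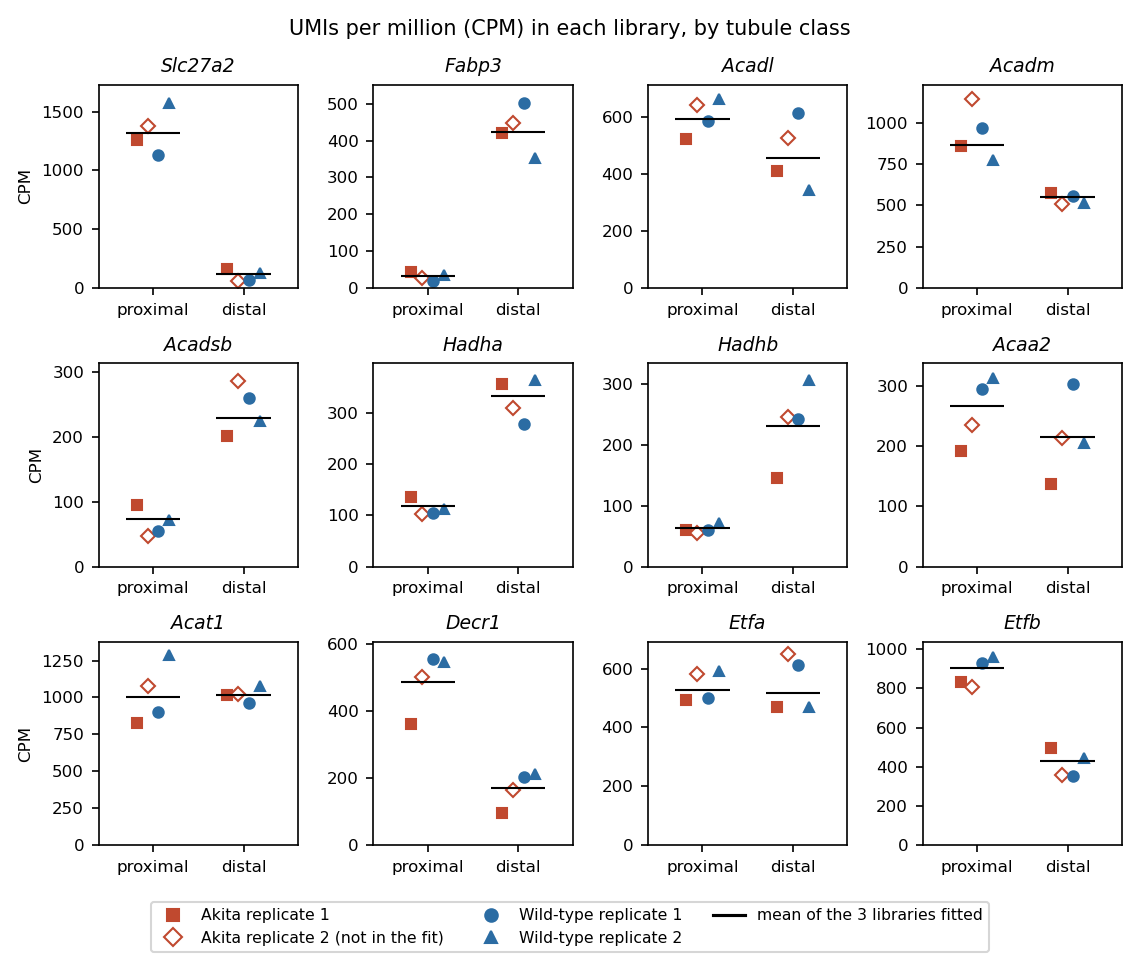
Level (CPM) of 12 members in the proximal and distal tubule-like cells of each library. Each marker is 1 library, black bars are means over the 3 libraries fitted, and the open diamond is Akita replicate 2, which was left out of the fit. Slc27a2, Acadm, Decr1 and Etfb sit lower and Fabp3, Acadsb, Hadha and Hadhb higher in distal tubule-like cells of each library fitted, while Acat1 and Etfa overlap.

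The later steps of the cycle did not move together. Hadha and Hadhb encode the alpha and beta subunits of the trifunctional protein, an inner-membrane complex that carries out hydration, dehydrogenation and cleavage of long chains. Hadha was at 136, 104 and 112 CPM in proximal and 356, 279 and 365 CPM in distal tubule-like cells (log2 fold change 1.48, SE 0.19, edgeR adjusted p 7.73e-06). Hadhb was at 59.9, 59.9 and 72.3 CPM in proximal and 146, 242 and 305 CPM in distal tubule-like cells (log2 fold change 1.82, SE 0.24, edgeR adjusted p 8.98e-06). For both subunits every distal value was above every proximal value. Of their last 500 exonic bases, 75 of Hadha overlap Garem2 on the opposite strand, as 81 of Fabp3 overlap Zcchc17 and 59 of Crat overlap Dolpp1.

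The 2 genes lie head to head on chromosome 5, Hadha on the minus strand at chr5:30118304-30155162 and Hadhb on the plus strand at chr5:30155248-30184593. The 85 bases between them (chr5:30155163-30155247, GRCm38.p6, plus strand, RefSeq) are shown because the pair moved together and this stretch lies upstream of both starts. Capitals mark the motif GGGCGG, searched on both strands.
Hadha-Hadhb intergenic: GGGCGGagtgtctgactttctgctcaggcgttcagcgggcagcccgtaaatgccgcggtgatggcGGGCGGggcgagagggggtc
The stretch held 2 copies, and among 32851 RefSeq promoters 22.5% had at least 1 copy and 7.91% at least as many in a window of the same length and position. Its GC content was 69.4%.

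Among the other enzymes of these steps, Echs1, the short-chain enoyl-CoA hydratase, was called higher in distal tubule-like cells (log2 fold change 0.57, SE 0.22, edgeR adjusted p 0.0456). Echs1 was called in 8 of the 16 settings tried, and DESeq2 did not call it. Hadh, the hydroxyacyl-CoA dehydrogenase for shorter chains, was called lower (−0.65, SE 0.23, edgeR adjusted p 0.0356). Acaa1b, a thiolase of peroxisomes, was at 120, 140 and 177 CPM in proximal and 56.6, 0 and 26.5 CPM in distal tubule-like cells, where the Wild-type replicate 1 value rests on 0 UMIs (log2 fold change −2.55, SE 0.47, edgeR adjusted p 0.000305). Reads of Acaa1b and its close copy Acaa1a may be split in counting, and 224 of its last 500 exonic bases overlap Dlec1 on the opposite strand.

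Acat1 and Acaa2, the mitochondrial thiolases, did not separate the classes. Acat1 splits acetoacetyl-CoA and also acts in ketone body and isoleucine metabolism (chr9:53580522-53610382). It was at 825, 901 and 1289 CPM in proximal and 1019, 961 and 1075 CPM in distal tubule-like cells (log2 fold change 0.01, 95% interval −0.31 to 0.32, edgeR adjusted p 0.976). Acaa2, which cleaves medium and long chains, was at 191, 295 and 313 CPM against 137, 304 and 206 CPM (log2 fold change −0.34, 95% interval −0.75 to 0.07, edgeR adjusted p 0.192).

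All 3 auxiliary enzymes, which move or remove double bonds of unsaturated chains, had lower distal means, and 2 of them were called. Decr1, the dienoyl-CoA reductase, was at 362, 554 and 546 CPM in proximal and 97.0, 205 and 212 CPM in distal tubule-like cells, without overlap (log2 fold change −1.54, SE 0.19, edgeR adjusted p 3.9e-06). The isomerase Eci1 was also called (−0.87, SE 0.27, edgeR adjusted p 0.0149). Its relative Eci2 was not (−0.70, SE 0.30, edgeR adjusted p 0.0742).

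The subunits of the electron transfer flavoprotein, which work as a dimer, were not alike. Etfb, the beta subunit (chr7:43444083-43457800), was at 832, 927 and 958 CPM in proximal and 493, 353 and 444 CPM in distal tubule-like cells, without overlap (log2 fold change −1.12, SE 0.16, edgeR adjusted p 3.37e-05). Etfa, the alpha subunit, was at 493, 500 and 591 CPM against 469, 614 and 471 CPM and overlapped (log2 fold change −0.05, 95% interval −0.39 to 0.28, edgeR adjusted p 0.825). The dehydrogenase that takes up their electrons, Etfdh, was not called (−0.67, SE 0.34, edgeR adjusted p 0.143). Of the last 500 exonic bases of Etfb, 61 overlap Mir7051 on the same strand, and the effect on its count was not tested.

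Of PPAR-alpha and its targets, the 4 members tested were all called lower in distal tubule-like cells, and 3 were not tested. All 4 passed the filter on low counts through their proximal tubule-like level, so their shared direction is partly set by that filter. Without the filter, Pdk4 had a log2 fold change of 0.80, which rests on 3 proximal and 2 distal UMIs, and was not called. Acot2 was lower but not called, and Angptl4 was called lower. Vnn1, a pantetheinase, was at 180, 138 and 123 CPM in proximal and 32.3, 6.20 and 13.3 CPM in distal tubule-like cells (log2 fold change −3.17, SE 0.40, edgeR adjusted p 7.19e-06). Acot1, a cytosolic acyl-CoA thioesterase, was at 99.1, 106 and 66.9 CPM against 8.09, 6.20 and 26.5 CPM (−2.71, SE 0.50, edgeR adjusted p 0.000302). Acot1 and Acot2 are near-identical neighbours on chromosome 12, so reads may be split between them.

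Ppara itself rested on few molecules, 75 UMIs in proximal and 5 in distal tubule-like cells, and was lower in the latter (−1.98, SE 0.54, edgeR adjusted p 0.0071). Plin2, which coats lipid droplets, was at 55.3, 56.8 and 57.8 CPM in proximal and 16.2, 24.8 and 13.3 CPM in distal tubule-like cells (−1.64, SE 0.47, edgeR adjusted p 0.0099). Angptl4, a secreted inhibitor of lipoprotein lipase, had 51 UMIs in proximal tubule-like cells and 0 among 435759 UMIs of distal tubule-like cells. Set against the limit that a count of 0 allows over the 3 libraries (3 counts, 6.88 CPM), it was at least 4.52-fold lower there. Pdk4, the kinase that turns off pyruvate dehydrogenase, had 3 and 2 UMIs in the same cells, too few for its fold to be read.

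Levels of proximal tubule markers in distal tubule-like cells give a background for such ratios. Median depths were similar, at 785 UMIs in proximal tubule-like, 805 in loop of Henle-like, 787.5 in intercalated cell-like and 777 in connecting tubule-like cells. Medians of single proximal tubule-like clusters went from 498.5 to 3239 UMIs, the latter in 247 cells, so deep cells weigh more in the summed levels. The 18 proximal tubule markers were found in distal tubule-like cells at a median of 11.6% of their proximal level, with a range of 0 to 18.2%. Slc27a2 (8.98%), Vnn1 (11.8%) and Acot1 (15%) fell in that range, so their distal UMIs are not read as expression. The parts of free RNA, doublets and misassigned cells were not tested. By the mean of the 3 libraries, the other 9 members called lower lay above it, from Acaa1b (19.0%) to Acadm (63.2%). Acaa1b, Ppara and Plin2 rest on few distal UMIs, with 10, 4 and 4 in loop of Henle-like cells. Whether these 3 members exceed the background is therefore not clear. In the other direction, Fabp3 in proximal tubule-like cells was at 7.70% of its distal level, and 25 markers of the distal classes had a median of 4.32% there, with a range of 0 to 296%.

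Loop of Henle-like cells held 317078 of the 435759 UMIs of the distal pool. Both comparisons used the same proximal tubule-like cells, so a likeness of their calls was largely built in. The direction of the calls was mostly that of the loop of Henle-like cells, the single distal class that could be tested (10 or more cells per library). Of 26 members tested there, 10 were called lower and 6 higher than in proximal tubule-like cells (edgeR), while 20.8% of 3990 genes were called lower and 17.9% higher, 38.7% in either direction. Cpt1a joined the higher group (log2 fold change 0.79, edgeR adjusted p 0.00721), and Hadh was not called (−0.36, edgeR adjusted p 0.23). Without Akita replicate 1, 6 members in place of 10 were called lower.

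Intercalated cell-like and connecting tubule-like cells had too few cells for a test, and their levels over the 3 libraries together carry counting error only. Hadha and Hadhb were both at 369 CPM in intercalated cell-like cells (95% interval 249 to 527 for each), against 115 and 64.1 CPM in proximal tubule-like cells. Etfa was at 739 CPM in intercalated cell-like cells (564 to 951) and at 529 CPM (494 to 565) in proximal tubule-like cells. Acadsb reached 400 CPM (224 to 660) in connecting tubule-like cells, where 15 UMIs were counted. Hadh had 3 UMIs in intercalated cell-like cells, 36.9 CPM (7.62 to 108), beside 250.8 CPM (227 to 276) in proximal tubule-like cells.

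**Figure D3:**
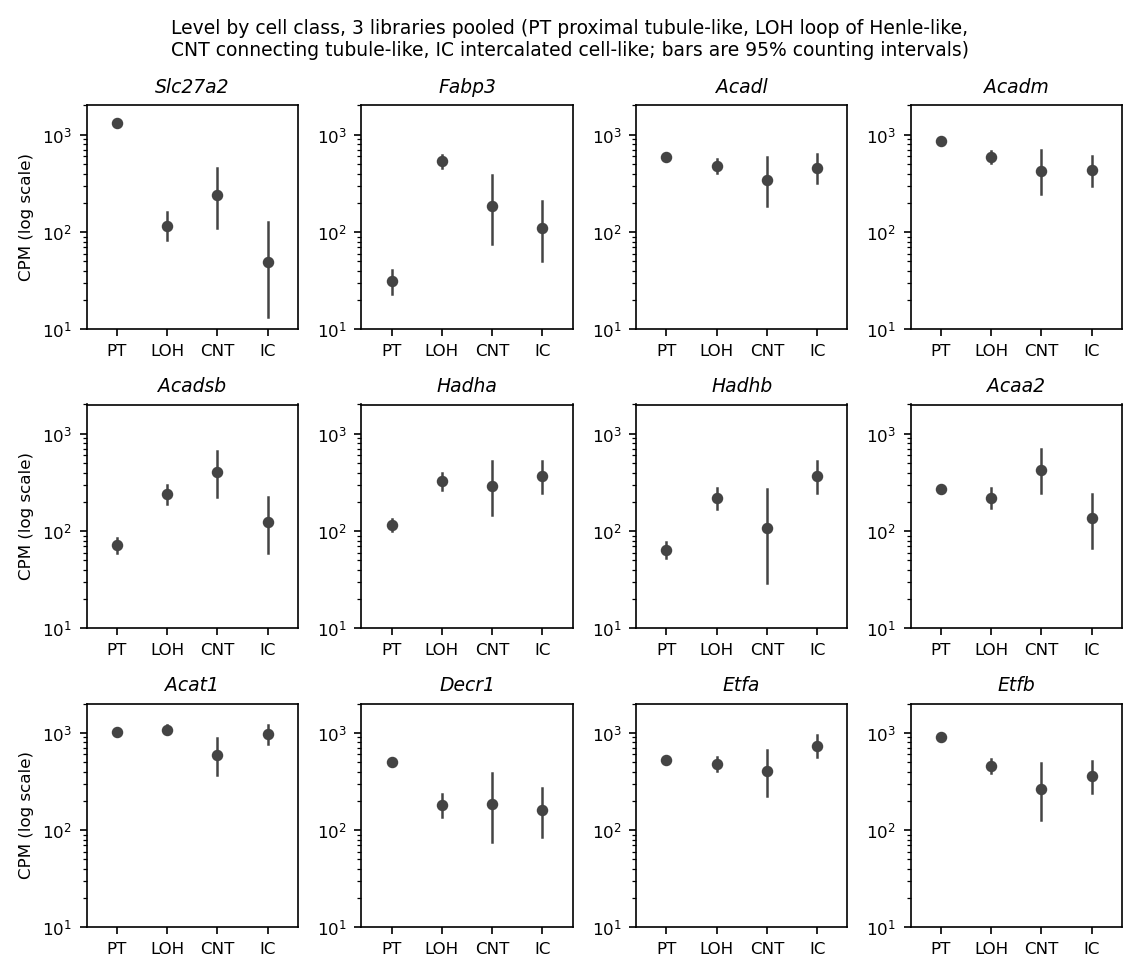
Level of 12 members in 4 cell classes on a logarithmic axis, from UMIs summed over 3 libraries, with exact Poisson 95% intervals that cover counting error only. Slc27a2 is highest in proximal tubule-like cells (1315 CPM), Fabp3 in loop of Henle-like cells (536 CPM) and Hadhb in intercalated cell-like cells (369 CPM).

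Within the proximal tubule, the convoluted first part (S1) and the straight last part (S3) are served by different transporters. At the clustering resolution reported, no cluster could be named S3-like by its markers. At resolution 2 one of 76 cells could, but it held 5 cells in Akita replicate 1, fewer than the 10 set as a minimum per library, and was not tested. Cells were set apart instead by a score chosen after the clusters were seen, the log2 ratio of S3 to S1 marker UMIs relative to the average proximal tubule-like cell. Cells at or above 1 were called S3-marker-rich (278 cells) and those at or below −1 S1-marker-rich (391 cells). These are ranges of a score and not cell types, and 285 cells lay within 0.25 of a limit. The S1-marker-rich cells had a median of 9 S1 and 1 S3 marker UMIs, the S3-marker-rich cells 1 and 5. Median depth was 667 UMIs in the former and 768.5 in the latter, and median mitochondrial share 22.3% and 17.5%, and the part of these in the results was not tested.

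Of 17 members tested between these groups, 8 were called: 6 were higher in S3-marker-rich and 2 in S1-marker-rich cells (edgeR, 3 libraries). Among all 1326 genes tested, 9.43% were called higher and 8.82% lower in S3-marker-rich cells, 18.3% in either direction. The 2 acyl-CoA dehydrogenases with enough counts were both higher in S3-marker-rich cells. Acadm was at 341, 634 and 266 CPM in S1-marker-rich and 1182, 1455 and 1145 CPM in S3-marker-rich cells of Akita replicate 1, Wild-type replicate 1 and Wild-type replicate 2 (log2 fold change 1.47, SE 0.23, edgeR adjusted p 2.94e-05). Acadl was at 284, 327 and 469 CPM against 651, 801 and 848 CPM (0.99, SE 0.22, edgeR adjusted p 0.00236). Neither gene overlapped between the groups.

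The thiolases diverged. Acat1 was at 398, 367 and 875 CPM in S1-marker-rich and 1301, 1409 and 1673 CPM in S3-marker-rich cells (log2 fold change 1.38, SE 0.22, edgeR adjusted p 4.38e-05), and the peroxisomal thiolase Acaa1b was higher there too (1.47, SE 0.40, edgeR adjusted p 0.0108). Acaa2 ran the other way, at 313, 394 and 469 CPM in S1-marker-rich against 119, 221 and 187 CPM in S3-marker-rich cells (−1.24, SE 0.27, edgeR adjusted p 0.00143). The acyl-CoA synthetase Acsl1 was likewise higher in S1-marker-rich cells, at 213, 207 and 177 CPM against 53.1, 27.6 and 66.0 CPM (−2.18, SE 0.44, edgeR adjusted p 0.000779). For both genes all 3 S1-marker-rich values lay above all 3 S3-marker-rich values. By cluster, Acsl1 was highest, at 304 CPM, in an unnamed proximal tubule-like cluster led by Snhg11, Slc5a12 and Kcnq1ot1. In the only cluster named S1-like it was at 118 CPM, and the other clusters ran from 77.5 to 121 CPM. The part of the unnamed cluster in the Acsl1 difference was not tested.

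Slc27a2 (log2 fold change 0.61, edgeR adjusted p 0.0294) and Etfa (0.80, edgeR adjusted p 0.0125) were also called higher in S3-marker-rich cells, while Etfb was not called (−0.18, edgeR adjusted p 0.591). Acat1, Acaa2, Acadl, Etfa and Acsl1 were therefore called between the score ranges but not between distal and proximal tubule-like cells. Whether these 2 contrasts differ was not tested. DESeq2 called 3 members (Acsl1, Acadm and Acat1) in place of 8, and without Wild-type replicate 1 edgeR called 5.

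**Figure D4:**
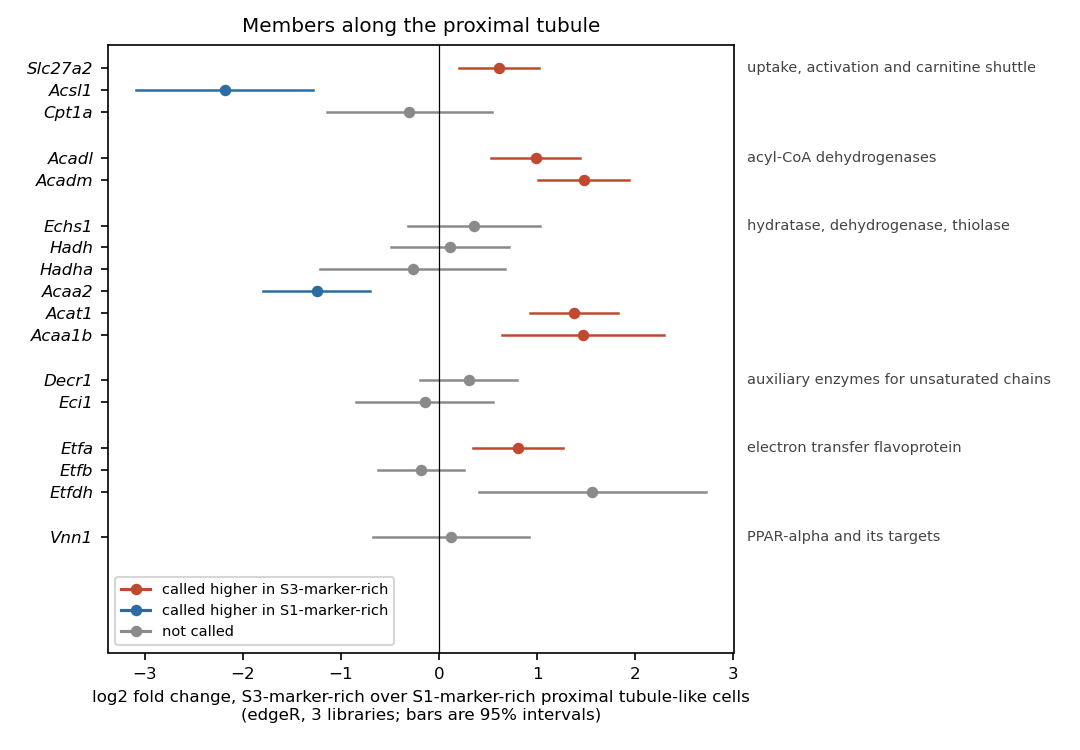
Log2 fold change of the 17 tested members between S3-marker-rich and S1-marker-rich proximal tubule-like cells, with 95% intervals from edgeR over 3 libraries. Points right of 0 are higher in S3-marker-rich cells: 6 members in red, among them Acadm (1.47) and Acat1 (1.38), lie to the right and Acsl1 (−2.18) and Acaa2 (−1.24) in blue to the left.

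Further genes of the pathway differed by list in how many were called between tubule classes, beside 21.4% lower and 18.5% higher over all genes tested. Of 26 other PPAR-alpha targets and peroxisomal enzymes, 13 were tested, 11 were called lower in distal tubule-like cells, 1 was called higher and 1 was not called (edgeR). The filter on low counts removed the other 13. A gene can pass that filter through its level in 1 class alone, so directions in this and the following lists may be partly set by it. Among those with the highest proximal level, Abcd3, a peroxisomal transporter, had a log2 fold change of −0.49 (edgeR adjusted p 0.0136) and the fatty acid hydroxylase Cyp4a10 one of −2.83 (edgeR adjusted p 3.3e-07). The gene called higher was Mgll, monoacylglycerol lipase (1.58, edgeR adjusted p 3.04e-05).

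Of 30 other fatty acid genes, not all of them mitochondrial, 19 were tested, 9 were called lower and 5 higher. Nudt19 (−2.23, edgeR adjusted p 6.33e-08), Crot (−1.32, edgeR adjusted p 2.56e-05) and Ech1 (−0.92, edgeR adjusted p 0.000478) had the highest proximal levels of this list and were lower. The 5 called higher, named here after their values were seen, were Acsl3, Acsl4 and Acsl5, which activate fatty acids as Acsl1 does, the acetyl-CoA synthetase Acss1, and Acacb, which makes the malonyl-CoA that inhibits Cpt1a. Acacb was at 0, 3.07 and 3.61 CPM in proximal and 72.8, 68.2 and 46.4 CPM in distal tubule-like cells.

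Of 22 regulators and receptor partners, 12 were tested, 3 were called lower, 1 higher and 8 not, a share of lower calls near that over all genes. Hnf4a, a nuclear receptor of the proximal tubule (log2 fold change −2.95, edgeR adjusted p 4.41e-07), Rxra, the partner of PPAR-alpha (−2.98, edgeR adjusted p 0.00363), and the corepressor Ncor1 (−0.54, edgeR adjusted p 0.0125) were lower in distal tubule-like cells. Ppargc1a, a coactivator of mitochondrial genes, was higher, at 76.0, 36.8 and 48.8 CPM in proximal and 178, 136 and 113 CPM in distal tubule-like cells (1.40, edgeR adjusted p 0.000488). Of the 4 ketone body enzymes, 2 were called lower and 2 higher. Oxct1, which lets a cell use ketone bodies, was called higher together with Bdh1. Oxct1 was at 984, 1079 and 2158 CPM in proximal and 3962, 4245 and 3596 CPM in distal tubule-like cells.

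Known binding motifs of PPAR-alpha and of the ERR receptors were sought in RefSeq promoters (GRCm38.p6, 250 bases before to 50 after each start), which were matched for 25 of the 31 members. The strict PPAR-alpha motif, AGGTCA repeated after 1 base of any kind, was found on either strand in 0 of the 25 and in 0.0396% of 32851 promoters. A looser form, which takes in the strict one and allows any base at the 4th place of each AGGTCA, was in 0 of 25 and in 0.381% of promoters. The motif bound by the ERR receptors, TCA followed directly by AGGTCA, was in 0 of 25 and in 0.423%. These letters are thus not in these windows.

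Between genotypes, no member passed the test. In all retained cells 29 members were tested, 0 were called and 1, Acaa2, had an unadjusted p under 0.05 (edgeR). DESeq2 and limma-voom also called 0. Over all 7169 genes edgeR called 0 (0.0%), and 68 (0.949%) had an unadjusted p under 0.05. In proximal tubule-like cells 0 of 29 members and 0 of 6119 genes were called, and 1 member, again Acaa2, and 58 genes (0.948%) had an unadjusted p under 0.05. Cells counted under both genotypes would draw the groups together, so these 0 calls as deposited do not show equal levels. After assigning each shared barcode to 1 file, 2 members, Acaa2 and Angptl4, had an unadjusted p under 0.05 in either population, where 3.16% and 2.76% of all genes did, and edgeR called 0 again. The 2 members not tested were Acadvl and Pdk4. The median 95% interval of a member reached 0.51 to either side of its log2 fold change in all retained cells and 0.55 in proximal tubule-like cells. With shared barcodes assigned to 1 file it reached 0.62 and 0.71. Differences below those sizes could mostly not be told from 0 at this depth and with 2 mice per genotype. These intervals are not adjusted for the number of genes, and a call needs a larger difference. With shared barcodes assigned to 1 file, Acaa2 at −0.71 and Angptl4 at 1.29 in all retained cells were not called.

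As a sum, the 31 members took 7091 and 7628 CPM in the Akita libraries and 7455 and 8158 CPM in the wild-type libraries, which overlapped. The median log2 fold change of the tested members was −0.09 in all retained cells and −0.08 in proximal tubule-like cells, beside 0.00 over all genes in both. With shared barcodes assigned to 1 file it was −0.22 and −0.12. In all retained cells the genotypes did not overlap for 11 tested members, 9 lower and 2 higher in Akita, while among all genes 11% lay lower and 12.6% higher, 23.6% in either direction. In proximal tubule-like cells the numbers were 7 lower and 0 higher, beside 11%, 11.9% and 22.8% of genes. With shared barcodes assigned to 1 file, 10 members lay lower and 4 higher in all retained cells, beside 16.1%, 13.5% and 29.6% of genes, and 11 lower and 2 higher in proximal tubule-like cells, beside 16.3%, 12.8% and 29.1%.

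As deposited, Acaa2 had the smallest p of the members in both populations. In all retained cells it was at 179 and 229 CPM in the Akita libraries and 297 and 290 CPM in the wild-type libraries (log2 fold change −0.51, SE 0.22, edgeR adjusted p 1.00). In proximal tubule-like cells the values were 191 and 234 against 295 and 313 CPM (−0.51, SE 0.23, edgeR adjusted p 1.00). With shared barcodes assigned to 1 file the difference in all retained cells was −0.71 (SE 0.25, edgeR adjusted p 0.999). Both Akita libraries lay below both wild-type libraries each time.

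Decr1 was at 303 and 418 CPM in the Akita libraries and 485 and 474 CPM in the wild-type libraries in all retained cells (log2 fold change −0.40, SE 0.22), and at 362 and 502 against 554 and 546 CPM in proximal tubule-like cells. Etfb was at 757 and 693 CPM against 813 and 848 CPM (−0.20, SE 0.21), and Eci1 at 134 and 147 CPM against 169 and 165 CPM (−0.24, SE 0.22). The Akita values of these 3 genes were the lower ones in both populations, and none was called.

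Acsl1 was at 95 and 74.1 CPM in the Akita libraries and 106 and 101 CPM in the wild-type libraries (−0.31, SE 0.26). Acaa1b was at 106 and 103 CPM against 112 and 145 CPM (−0.29, SE 0.24). The members on the other side were Fabp3, at 127 and 132 against 116 and 102 CPM (0.25, SE 0.24), and Acadsb, at 118 and 107 against 96.0 and 105 CPM (0.16, SE 0.24). Neither kept groups apart in proximal tubule-like cells, where Fabp3 was at 43.8 and 28.2 against 20.0 and 34.3 CPM. None of these 4 was called, with edgeR adjusted p of 1.00 each.

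Angptl4, below the level set for naming members and described after its values were seen, moved with the treatment of shared barcodes. In proximal tubule-like cells it was at 50.7 and 29.9 CPM in the Akita libraries and at 33.8 and 12.7 CPM in the wild-type libraries as deposited. With shared barcodes assigned to 1 file the values were 50.7 and 39.4 against 21.4 and 12.7 CPM (log2 fold change 1.45, SE 0.51, edgeR adjusted p 0.999). It rested on 68 UMIs in all, and it was not called in either form.

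**Figure D5:**
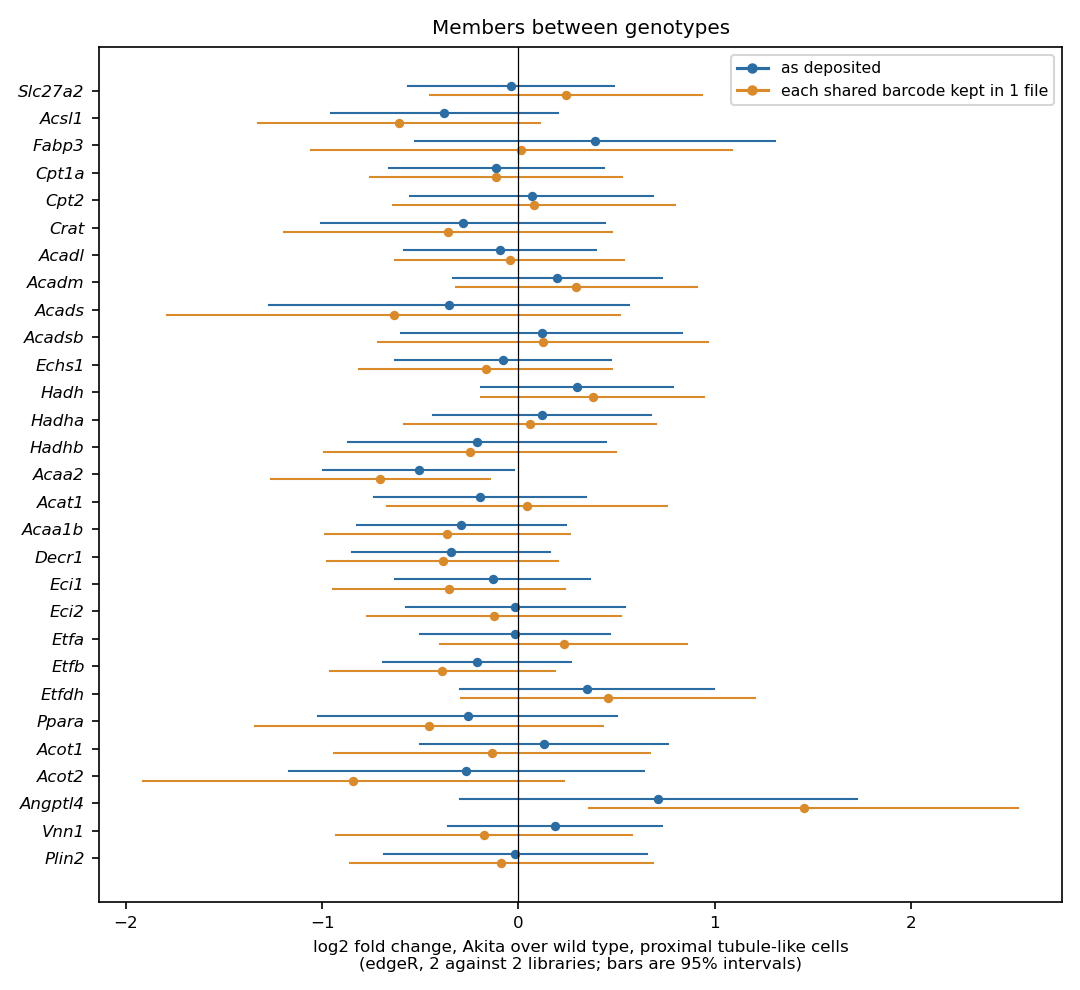
Log2 fold change of the 29 tested members between Akita and wild type in proximal tubule-like cells, with 95% intervals from edgeR (2 against 2 libraries), as deposited (blue) and with shared barcodes assigned to 1 file (orange). The values lie between −0.51 (Acaa2) and 0.71 (Angptl4) as deposited, and 0 members were called in either form.

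The other lists gave no call between genotypes either. In proximal tubule-like cells, edgeR called 0 of 21 tested other fatty acid genes and 0 of 16 tested PPAR-alpha targets and peroxisomal enzymes. It called 0 of 16 tested regulators and 0 of 4 ketone body enzymes. Median log2 fold changes were 0.03, 0.00, 0.25 and 0.07 in that order.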

How the data were processed

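Drop-seq was run on renal cortex of 4 mice, 2 Akita and 2 wild type, grouped by the labels. Each deposited file lists raw counts of UMIs, 1 gene and 1 barcode to a line. The submitters' processing notes name GRCm38, STAR 2.5.2b, featureCounts 1.6.0 and UMI-tools 0.5.3. Whether counting used strand is not given in the sources used here.

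In each file 4 strings that are no barcodes (1.08 to 1.33% of UMIs) were removed. Barcodes with at least 200 genes and at most 50% mitochondrial UMIs were kept, which held 54.9 to 63.1% of the UMIs, and doublets were not called and stayed in. Cells were clustered without the 113 genes of the lists (scanpy 1.11.5, leidenalg 0.10.2, 2000 variable genes, 30 components, 15 neighbours, resolution 1). A class needed 3 markers among the 50 leading genes of its cluster.

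UMIs were summed per library and class and tested with edgeR 4.0.16 in R 4.3.3 (quasi-likelihood, TMM, filterByExpr, two-sided, Benjamini-Hochberg over all genes tested, threshold 0.05), with library as a term between segments. The edgeR steps were also run on simulated counts with the same dispersion for every gene. Those counts held no shared barcodes or background RNA, so they cannot show how these act on the results. Alternatives were DESeq2 1.42.0, limma-voom 3.58.1, other filters, clusterings and libraries. The labels do not say how the libraries of a genotype relate beyond 1 age each, so p-values measure only the spread between these libraries. Intervals on UMIs cover counting error only.

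Members given in full were the 8 with the highest proximal level, up to 4 with the highest distal to proximal ratio, up to 8 called between the score ranges and, between genotypes, up to 8 per population by smallest p with a mean of at least 50 CPM whose genotypes did not overlap in either form of the data. Of each other list the 3 highest were to be named, and some of these are not reported here. Other members were described by role after their values were seen. Members, lists and rules were chosen with earlier results of these data known.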

Additional observations from a re-analysis of the deposited data

How the results depend on the processing

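Between distal and proximal tubule-like cells, 10 members were called in all 16 settings tried, 6 lower (Slc27a2, Acadm, Decr1, Etfb, Acot1 and Vnn1) and 4 higher (Fabp3, Acadsb, Hadha and Hadhb). DESeq2 called 6 members lower, and without a filter on low counts the median log2 fold change was −0.89. For loop of Henle-like cells, leaving out 1 library gave 6 to 12 members called lower, the lowest without Akita replicate 1, and no filter gave 16. Between the score ranges, leaving out 1 library gave 5 to 8 members, the lowest without Wild-type replicate 1, and DESeq2 gave 3. Acat1, which was not called, changed sign between distal and proximal tubule-like cells with all 4 libraries (−0.019), Akita replicate 2 in place of Wild-type replicate 1 (−0.064), no filter (−0.23), no library block (−0.0097), at least 500 genes per cell (−0.11) and at most 25% mitochondrial UMIs (−0.032), and ran from −0.17 to 0.16 with 1 library left out. Etfa, also not called, was at 0.0016 with all 4 libraries and ran from −0.23 to 0.093 with 1 library left out. The cause was not tested.

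Between genotypes 0 members were called in every setting tried. The median over members in all retained cells ran from −0.16 to −0.048 with 1 library left out and in proximal tubule-like cells from −0.21 to −0.00056. In all retained cells it was −0.035 at no more than 25% mitochondrial UMIs. With shared barcodes assigned to 1 file it was −0.22 by edgeR, −0.20 with the replicate block, −0.21 by DESeq2 and −0.17 by limma-voom. Over all genes edgeR called 23 genes in all retained cells and 11 in proximal tubule-like cells when Akita replicate 2 was left out, and 14 in each when Wild-type replicate 1 was. With fewer than 2 libraries left in a genotype, the lone library is assumed to vary like the other genotype. The replicate numbers are not stated to pair mice, and deviations of same-numbered libraries correlated at −0.25 in all retained cells and −0.23 in proximal tubule-like cells as deposited, and at 0.21 and 0.20 with shared barcodes assigned to 1 file. The replicate block called 0 members, with medians of −0.09 and −0.07, and the crossed block, added after seeing the data, also called 0. Connecting tubule-like and intercalated cell-like cells numbered under 10 in Akita replicate 1 and were not tested alone, and S3-like against S1-like clusters was not run, because no cluster could be named S3-like at the resolution reported and the one named at resolution 2 had 5 cells in Akita replicate 1. Depth limits members such as Acadvl and Pdk4, with 17 and 8 UMIs.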
